A study of Rattus norvegicus with 6 samples.

Results

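The sites described here are the CpG sites of rat dorsal root ganglia that the authors' annotation places both in a promoter and in a CpG island. They were chosen by these annotation flags in the deposited table, without use of their methylation, and number 787 of the 32674 annotated nuclear sites (2.41%). They lie near 215 transcript starts of 214 genes on 20 autosomes, with a median of 3 and at most 13 sites per transcript. Dorsal root ganglia are clusters of sensory neuron cell bodies beside the spinal cord, together with satellite glia, Schwann cells and vascular and immune cells. Reduced representation bisulfite sequencing (RRBS) was run on 3 libraries after spinal nerve ligation (SNL) and 3 after sham surgery (Sham), to ask where CpG methylation differs after nerve injury. All 6 came from male Sprague-Dawley rats of 8 to 9 weeks and about 220 g, taken 3 weeks after surgery. For SNL, which models neuropathic pain, silk was tied around the L5 and L6 nerves on the left, and the sham operation, with no ligature, was made on the opposite side. The labels do not name the animals, so SNL and Sham libraries may share one, and the p-values reflect only how much the 6 libraries vary, some of which may be technical. No expression was measured, so the tissue label could not be checked against marker transcripts.

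A CpG island is a stretch of DNA rich in G, C and the dinucleotide CpG. Methylated cytosines mutate readily, so most of the genome has lost CpGs, while islands, many of which hold the start of a gene, are usually kept free of methylation in all tissues. Where an island promoter is methylated, as at many germline genes in somatic cells, the gene is usually silent. Each value here is the percent of reads in which a CpG cytosine resisted bisulfite conversion. A value was kept at 100 reads or more in every library, and the member sites were read 239 times at the median, up to 3356 times.

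The promoters in question were mostly rich in CpG. The island flag selects for GC and CpG content, so the GC, CpG and ratio values below describe that choice. RefSeq promoter sequences (GRCr8, from 250 bases before to 50 bases after the start) were matched for 157 of the 214 genes, 165 promoters in all. Their median GC content was 64.3%, against 51.7% over all 33469 RefSeq promoters of the table. The median number of CpGs in 300 bases was 25 against 7, and the ratio of CpGs observed to those expected from base composition was 0.83 against 0.39 at the median. A ratio above 0.6 was reached by 87.9% of these promoters and by 34.3% of all. Genes with promoter sites only outside islands lay between, with 59.7% GC, 18 CpGs and a ratio of 0.73 at the median over 574 promoters. On either strand, CCGG, the sequence that the restriction enzyme MspI cuts to make RRBS fragments, was in 95.8% of the island promoters and 51.4% of all, so that measured promoters are chosen in part by it. The motif bound by Sp1-type factors, GGGCGG, was in 73.9% against 33.1%. The core of the TATA box, TATAAA, was in 6.7% against 14.2%, and the CCAAT box in 33.3% against 37.5%. In genes with promoter sites only outside islands, CCGG was in 83.1%, GGGCGG in 58.4%, TATAAA in 5.2% and CCAAT in 35.0%. A low share of TATAAA was thus not particular to the island promoters. How far the shares of these motifs follow from base composition was not tested. The sequences were searched without regard to overlap between motifs, and a match is a run of letters, not a bound site.

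Whole promoters of 3 of these genes are printed to show the range of CpG content behind the results below. Each runs 5′ to 3′ along the gene, in RefSeq GRCr8 coordinates, with CpGs in capitals. Pom121, which encodes a nuclear pore membrane protein, stands for the many unmethylated islands, and Dazl and Dcdc2c are methylated exceptions.
Pom121, chr12:26913263-26913562, plus strand: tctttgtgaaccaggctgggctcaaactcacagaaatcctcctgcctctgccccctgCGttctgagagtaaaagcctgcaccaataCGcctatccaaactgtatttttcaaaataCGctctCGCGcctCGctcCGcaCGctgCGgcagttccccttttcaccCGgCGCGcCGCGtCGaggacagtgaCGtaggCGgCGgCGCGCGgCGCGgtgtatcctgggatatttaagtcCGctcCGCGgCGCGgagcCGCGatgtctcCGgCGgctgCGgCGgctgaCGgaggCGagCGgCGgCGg
Dazl, chr9:18193113-18193412, plus strand: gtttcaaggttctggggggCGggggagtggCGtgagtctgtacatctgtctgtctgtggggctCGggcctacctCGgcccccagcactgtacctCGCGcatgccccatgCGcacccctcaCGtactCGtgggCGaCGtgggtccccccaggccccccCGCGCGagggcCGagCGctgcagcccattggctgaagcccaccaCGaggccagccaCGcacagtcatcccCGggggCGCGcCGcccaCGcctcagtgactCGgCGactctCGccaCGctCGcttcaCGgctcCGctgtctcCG
Dcdc2c, chr6:50906390-50906689, minus strand: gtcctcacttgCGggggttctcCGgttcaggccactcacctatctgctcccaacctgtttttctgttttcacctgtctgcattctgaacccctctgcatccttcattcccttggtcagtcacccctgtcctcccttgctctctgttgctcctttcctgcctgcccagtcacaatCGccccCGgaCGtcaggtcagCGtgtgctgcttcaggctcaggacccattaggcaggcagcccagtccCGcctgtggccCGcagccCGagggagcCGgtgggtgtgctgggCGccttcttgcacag
Pom121 holds 39 CpGs with an observed to expected ratio of 1.27, Dazl holds 31 with a ratio of 0.83, and Dcdc2c holds 11 with a ratio of 0.41. Dazl, whose ratio equals the median of the set, had the most methylated start of all.

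Almost all member sites were nearly free of methylation in both groups. Mean methylation over the 6 libraries was under 5% at 749 of the 787 sites (95.2%) and under 2% at 493 (62.6%). A further 22 sites lay at 5 to 20%, 3 at 20 to 80% and 13 above 80%. By gene, 126 of the 215 starts averaged under 2%, 80 averaged 2 to 5%, 6 averaged 5 to 20% and 3 were above 50%, and no start averaged 20 to 50%. Promoter sites outside islands were spread more widely, with 56.6% of 1600 sites under 5% and 18.3% at 20 to 80%. Island sites away from promoters had 72.6% of 686 sites under 5%, between the other classes, and 13.3% above 80%, the highest share of the 3 classes (1.65% of members and 9.94% of promoter sites outside islands). Over all 32674 annotated sites the share under 5% was 10.3%.

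**Figure D1:**
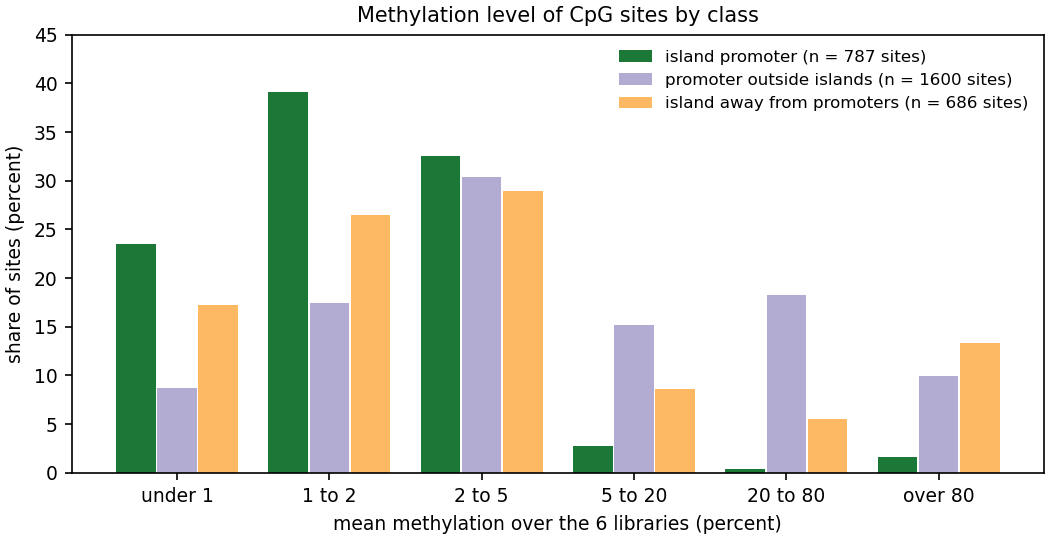
Share of CpG sites (y axis, percent of the sites of each class) by mean methylation over the 6 libraries (x axis, percent) for the 787 CpG island promoter sites, 1600 promoter sites outside islands and 686 island sites away from promoters. The island promoter sites stand at 95.2% below a level of 5%, whereas 18.3% of promoter sites outside islands lie at 20 to 80%.

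The median level was low at all distances from the start, and slightly higher downstream than upstream. The median site mean lay between 1.24% and 1.89% in each of 8 intervals of distance from 1000 bases upstream to 1000 bases downstream of the start. It was 1.24% to 1.3% in the upstream intervals and 1.37% to 1.89% in the downstream intervals. The mean was highest, 9.12%, at 100 to 250 bases downstream, and was 2.04% there without the 3 most methylated genes. Without these genes the interval means were 1.64% to 1.89% upstream and 1.95% to 2.56% downstream. Whether this step exceeds the spread between genes was not tested. In single libraries 36 to 79 of the 787 sites had no methylated read, and no site had none in all 6. How many cytosines bisulfite left unconverted was not analysed here, so a level near 1% was not separated from incomplete conversion. The order of the low sites was only partly shared between libraries. Over the 771 sites under 20%, the correlation of log2(percent + 0.1) between libraries ranged from 0.36 to 0.45, within and between groups alike, as a description over sites that share libraries and fragments.

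The genes with the most sites show the unmethylated state along a start. Usf2, a transcription factor that binds E-boxes, had 13 sites from 88 bases upstream to 113 downstream with means from 0.69% to 2.84%. Its summed reads were 1.08%, 1.44% and 1.42% methylated in SNL 1 to 3 and 1.25%, 1.34% and 1.34% in Sham 1 to 3, so the groups overlapped. Hmgb2, a DNA-bending chromatin protein, had 11 sites with means from 0.75% to 3.78%. Kctd1, a BTB domain protein, had 11 sites, of which the one 105 bases downstream stood at 5.61% and the other 10 at 0.24% to 1.26%. Ptpn9, a protein tyrosine phosphatase, had 9 sites between 0.73% and 2.55%.

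The 3 starts above 50% were those of Dazl, Naa50 and Dcdc2c. Dazl encodes an RNA-binding protein of germ cells. Its 7 member sites, on chromosome 9 from position 5899247 (rn4) and 145 to 344 bases downstream of the start, averaged 90.3% and ranged from 75% to 98.5%. The site 182 bases downstream was methylated at 100.0%, 98.8% and 98.6% in SNL 1 to 3 and 99.2%, 97.6% and 97.0% in Sham 1 to 3. Methylation was also high close to the start, in the last part of the Dazl promoter printed above: 8 sites from 45 to 3 bases upstream, read at least 42 times in every library, stood between 87.9% and 96.0%. No CpG between 359 and 45 bases upstream reached 20 reads in all libraries. Single CpGs among methylated neighbours were low, with 15.9% and 13.7% at 10 and 13 bases downstream, next to 91.8% at 20 bases. A separate group of sites further upstream, outside the printed sequence, had 14.2% at 366 bases next to 96.5% at 362 bases.

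Naa50, the catalytic subunit of an N-terminal acetyltransferase, had 6 exon-flagged member sites on chromosome 11 from position 58126325, 186 to 235 bases downstream of the start, between 81.4% and 89.0%. Summed over the sites, methylation was 86.8% ± 2.3 in SNL and 86.2% ± 1.9 in Sham (SD, n = 3 each), and the groups overlapped. No other CpG within 2000 bases of this start reached 20 reads in all 6 libraries. Dcdc2c, which encodes a doublecortin domain protein, had 2 sites, 76 and 70 bases upstream of the start on chromosome 6 (positions 46420079 and 46420073). The site at 76 bases stood at 73.2%, 75.8% and 70.7% in SNL and 65.7%, 76.6% and 67.2% in Sham. The site at 70 bases stood at 82.5%, 83.9% and 82.9% in SNL and 78.6%, 82.6% and 80.3% in Sham, with 390 to 542 reads. At both, the groups overlapped.

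A few starts had intermediate methylation. Vgf, the precursor of secreted neuronal peptides induced by nerve growth factor, was unmethylated on its upstream side (2.26% at 212 bases) and more methylated at 3 exon-flagged sites downstream. The Vgf site 732 bases downstream stood at 29.8%, 30.1% and 25.2% in SNL and 25.2%, 28.6% and 18.7% in Sham, the highest of the 3 downstream sites. The difference of 4.19 points ± 3.32 (SE) was within the spread between libraries (adjusted p = 0.525). Cldn7, a tight junction protein, averaged 14.29% and 10.01% at its 2 sites. Prmt8, an arginine methyltransferase, averaged 5.01% over 2 sites, and Eif4g2, a translation initiation factor, 4.89% over 5. Mettl7a, named after its value was seen, had 1 site at 11.4%.

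**Figure D2:**
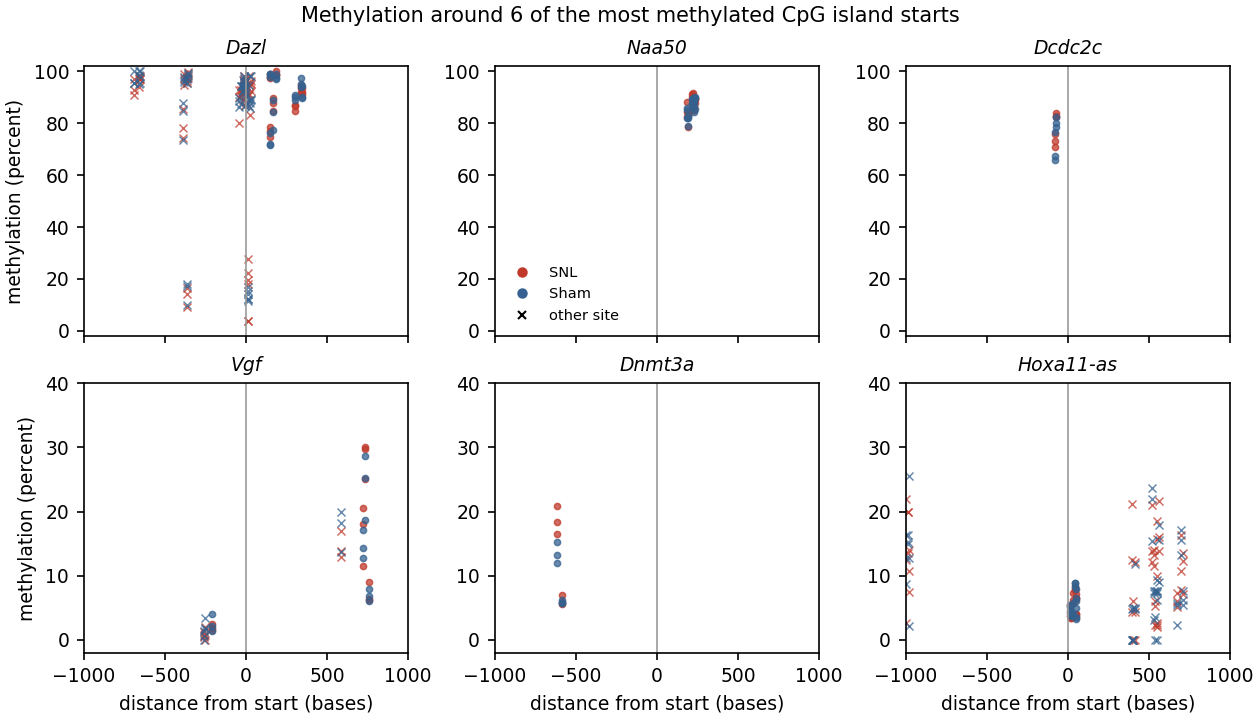
Methylation (y axis, percent) by distance from the transcript start (x axis, bases) for 6 of the most methylated starts, with 1 point per site and library in SNL (red) and Sham (blue). Circles are CpG island promoter sites, crosses are other CpGs with at least 20 reads in each library, and the y axis ends at 40% in the lower row. Dazl, Naa50 and Dcdc2c lie mostly above 65%, Dazl with single low CpGs, and the lower 3 stay under 31%.

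No member site differed between SNL and Sham at an adjusted p under 0.05. Each of the 32674 annotated sites was tested by a logistic model of methylated and unmethylated reads with moderated overdispersion, and p-values were adjusted over all of them (Benjamini-Hochberg). The smallest adjusted p among the 787 members was 0.102. The background was 464 called sites, or 1.42% of all sites, with 1.24% lower and 0.181% higher after SNL. At an unadjusted p under 0.05 there were 27 members (3.43%) against 13.1% of all sites. That gap depended on the test: with limma on logit values the unadjusted count was 85 members (10.8%) against 10.7% of all sites, and without moderation it was 7 (0.889%) against 6.02%. Both of these called 0 of all 32674 sites at an adjusted p under 0.05, so their count of 0 members carries no information on the members.

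That count is to be read against the level of the sites. Among all annotated sites under 5%, 2 of 3350 were called, 1 lower and 1 higher, and members make up 749 of these. At promoter sites outside islands, 20 of 1600 were called, all lower after SNL, and 16 of the 20 lay at 20 to 80%, a range with 3 member sites. Island sites away from promoters gave 4 lower and 4 higher calls. Whether members differ less than other sites of the same level was not tested.

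The differences at members were small. The difference in group means was under 1 percentage point at 635 sites (80.7%), at least 2 points at 28 and at least 5 points at 1, with a 95th percentile of 1.84 points in size. The median standard error of a difference was 0.60 points. Over all annotated sites 36.6% of differences were under 1 point. At 57 members all SNL libraries lay above all Sham libraries and at 35 below, together 11.7%, against 4.64% above, 13.2% below and 17.8% together over all annotated sites. The same reads, summed over the member sites of each start, gave 0 called of 215 starts with the same logistic model. The background was 0.646% of 8820 sums (0.601% lower and 0.0454% higher after SNL), so 0 of 215 is near that share. The smallest adjusted p of a start was 0.204, and 6 starts (2.79%) had an unadjusted p under 0.05, against 14.2% of all sums. With limma on logit values 0 of the 215 was called, against 8 of all 8820 sums, and 19 (8.84%) had an unadjusted p under 0.05, against 12.8%.

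**Figure D3:**
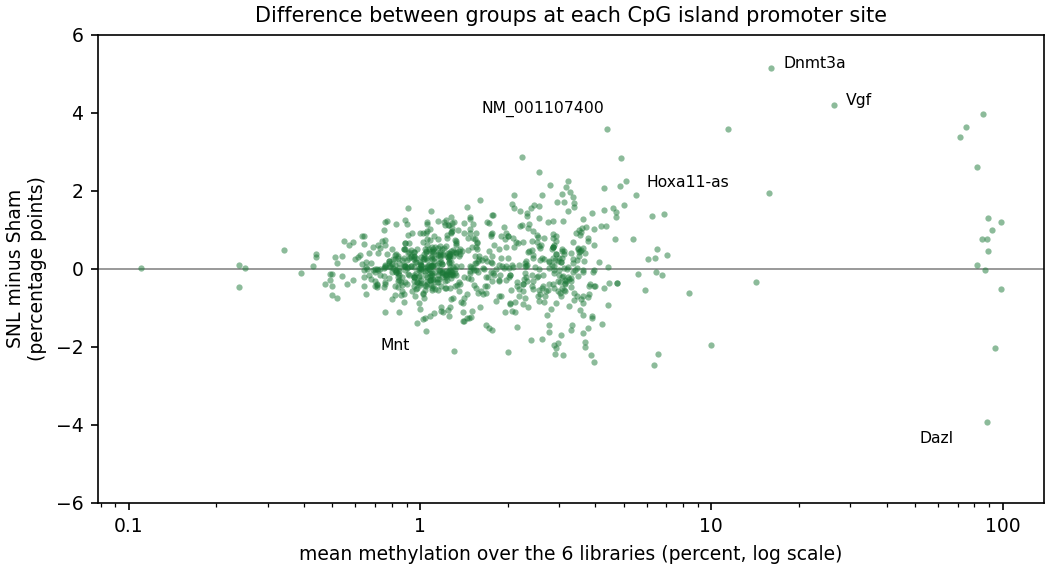
Difference between group means (y axis, SNL minus Sham, percentage points) against mean methylation over the 6 libraries (x axis, percent, log scale) for the 787 CpG island promoter sites, 1 point each. The 635 sites within 1 point of 0 fill the left of the plot, and the highest and lowest points are Dnmt3a at 5.16 and Dazl at -3.93.

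The member with the lowest p and the largest difference was a site of Dnmt3a, the de novo DNA methyltransferase. It lies 614 bases upstream of the start at position 26859261 of chromosome 6 and carries an intron flag, which can refer to another transcript. Its methylation was 18.38%, 16.54% and 20.90% in SNL and 13.18%, 15.20% and 11.97% in Sham, on 506 to 659 reads per library. All SNL libraries lay above all Sham libraries, with a difference of 5.16 points ± 1.58 (SE), which did not pass the threshold (adjusted p = 0.102, 0.0510 to 0.805 over the other settings of the test). In the authors' deposited table this site has a q-value of 0.0301, the only member under 0.05 there, against 4.54% of all annotated sites. The neighbouring Dnmt3a site 27 bases nearer the start differed by 0.25 points ± 0.44 (SE), with 5.94%, 5.63% and 7.0% in SNL and 5.79%, 6.26% and 5.77% in Sham. The shift was thus seen at 1 of the gene's 2 measured sites.

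The next lowest p-values fell at sites with low levels. Hoxa11-as, a long noncoding RNA antisense to a homeobox gene, had 6 sites from 15 to 51 bases downstream on 1276 or more reads per library. The site 34 bases downstream was at 5.80%, 7.33% and 6.26% in SNL and 5.67%, 4.13% and 3.93% in Sham (adjusted p = 0.162), while the summed reads of the 6 sites gave 5.53% ± 0.20 and 5.50% ± 0.50 (SD, n = 3). Map2k2, a kinase of the ERK cascade, stood at 1.66% ± 0.35 in SNL and 0.46% ± 0.18 in Sham at 347 bases upstream (adjusted p = 0.227). Chsy1, which extends chondroitin chains, stood at 3.28% ± 0.39 and 1.66% ± 0.69 at 503 bases upstream (adjusted p = 0.271). The groups did not overlap at any of these sites.

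Of the remaining sites with the lowest p, 3 were higher in SNL. These were sites of Tacc1, a centrosomal protein (3.86% ± 0.95 against 1.71% ± 0.57), of Hsd17b12, an enzyme of fatty acid elongation (1.47% ± 0.30 against 0.56% ± 0.12), and of a transcript without a matched symbol, NM_001107400 (6.16% ± 2.06 against 2.58% ± 0.39). Mnt, a repressor that pairs with Max, was lower in SNL, with 0.00%, 0.78% and 0.00% against 2.26%, 2.45% and 0.83%. The adjusted p of these 4 sites ran from 0.246 to 0.275. At high levels Dazl had the lowest p at 300 bases downstream, with 86.9%, 84.7% and 86.7% in SNL and 90.1%, 90.9% and 89.1% in Sham (-3.93 points ± 0.88, adjusted p = 0.369). The other 6 Dazl sites overlapped between the groups, including the one at 167 bases, which differed by 3.96 points ± 3.72 (SE) in the other direction, and summed over all 7 sites Dazl stood at 90.6% ± 1.1 and 90.7% ± 1.4 (SD, n = 3).

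Averaged over all members, SNL libraries stood slightly above Sham libraries. The mean was 3.68%, 3.64% and 3.65% in SNL 1 to 3 and 3.58%, 3.57% and 3.45% in Sham 1 to 3, so the groups did not overlap. The difference was 0.12 points ± 0.04 (SE, n = 3 each), and 435 sites were higher and 352 lower after SNL. Without Dazl, Naa50 and Dcdc2c the means were 2.03% ± 0.02 and 1.92% ± 0.07, again without overlap. Over all annotated sites the difference was in the other direction, -0.92 points, and 38.7% of sites were higher, against 55.3% of members. Sites of low level elsewhere were also slightly higher in SNL: the 2601 other annotated sites under 5% averaged 2.32% in SNL and 2.27% in Sham, and the 749 members under 5% averaged 1.81% and 1.73%. Sham 3, the library with the lowest depth (27247702 reads summed over CpGs, 29420922 to 34293779 in the others), had the lowest mean of members, and without it the difference was 0.08 points. Over all annotated sites Sham 3 had the highest mean, 68.6%. At the 2601 other sites under 5% it stood at 2.30%, against 2.26% and 2.25% in Sham 1 and 2. The part of Sham 3 in the result was not tested.

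**Figure D4:**
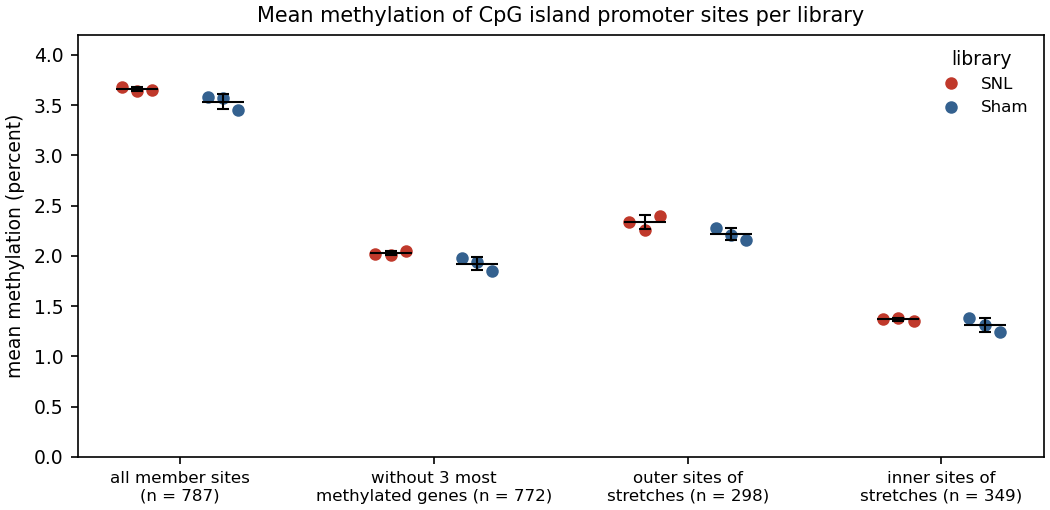
Mean methylation (y axis, percent) per library in SNL (red) and Sham (blue) for 4 sets of CpG island promoter sites on the x axis, with the group mean and SD as a bar. All 787 sites average 3.45% to 3.68%, outer sites of stretches exceed inner sites in every library, and the groups overlap at the inner sites.

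Within runs of neighbouring sites, those at the ends read higher than those inside. Neighbouring annotated sites less than 50 bases apart and of like coverage were joined into stretches. Only member sites with a mean under 20% were kept, and only stretches with at least 3 of them. This gave 149 stretches with 647 member sites, a grouping chosen after the data were seen. In 140 of them (94.0%) the most methylated site was the first or the last of the stretch, and such outer sites made up 298 of the 647. Outer sites averaged 2.34%, 2.26% and 2.40% in SNL and 2.28%, 2.21% and 2.16% in Sham. Inner sites averaged 1.37%, 1.38% and 1.35% in SNL and 1.38%, 1.31% and 1.24% in Sham. Outer sites therefore exceeded inner sites in each of the 6 libraries by more than the groups differed. The difference between SNL and Sham was 0.05 points at inner sites, where the groups overlapped. The share of stretches with the highest site at an end was 87.7% at promoters outside islands and 88.9% at islands away from promoters. The pattern was thus not found at members alone. Outer sites made up 292 of 521 sites and 216 of 469 sites there, so the shares of the classes are not directly comparable.

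At starts whose sites could be matched to sequence, the highest site by mean was mostly at the MspI cut. These starts were chosen separately from the stretches above. For 18 of 25 starts with at least 3 sites in the promoter window, the distances between measured CpGs matched those between CpG letters of the RefSeq promoter at 1 position, with no unmeasured CpG between. This is a match of letter spacing in GRCr8, not a conversion of coordinates. CCGG was at a measured CpG in 16 of them. The stretches below run 5′ to 3′ along the gene from the base before the first measured CpG, with CCGG in capitals. Gadd45b and Fosb are nerve injury response genes, Ndufa9 encodes a respiratory chain subunit, Stc2 a secreted glycoprotein, Cep55 a protein of cell division and Ptms parathymosin.
Stc2, chr10:16755347-16755393, plus strand: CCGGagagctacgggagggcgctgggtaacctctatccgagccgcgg
Cep55, chr1:245245199-245245245, plus strand: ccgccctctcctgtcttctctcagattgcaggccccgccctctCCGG
Gadd45b, chr7:9430881-9430919, minus strand: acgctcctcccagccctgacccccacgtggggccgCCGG
Fosb, chr1:88089269-88089289, minus strand: tcgttcttctgattcgtCCGG
Ndufa9, chr4:161374180-161374210, minus strand: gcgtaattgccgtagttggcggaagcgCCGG
Pom121, chr12:26913377-26913427, plus strand: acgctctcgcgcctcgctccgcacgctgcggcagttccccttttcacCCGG
Ptms, chr4:159412849-159412889, minus strand: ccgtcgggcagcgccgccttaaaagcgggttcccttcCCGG
In Stc2 the CpG of the CCGG stood at 5.92% and the other 5 measured CpGs at 1.06% to 1.34%. In Gadd45b it stood at 2.83%, 2.44% and 2.43% in SNL and 2.09%, 2.67% and 2.95% in Sham, while the other 3 averaged 0.72% to 0.85%. The CCGG thus comes first in the Stc2 stretch and last in that of Gadd45b, with the higher value at that end in both. In Cep55 the values were 4.72% against 0.82% and 1.03%, in Fosb 3.06% against 1.07% and 1.72%, and in Ndufa9 2.44% against 0.44% to 1.15%. In Pom121, the lowest of the set, the CCGG site had the highest mean, 1.94%, but another CpG of the stretch stood higher in 5 of the 6 libraries, all but Sham 1.

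Over the 16 stretches the CpG in CCGG averaged 3.19% and the other 59 CpGs 1.11%. By the mean over the 6 libraries it was the highest of its stretch in 15. The exception was Ptms, whose first CpG stood at 6.54% and whose CCGG site stood at 2.56%. In single libraries another CpG stood higher in some of the other stretches too, as in Carmil1 in SNL 1 (2.22% against 1.48% at the CCGG). By library the CCGG sites averaged 2.91% to 3.51% and the others 1.01% to 1.25%. The SNL libraries, at 2.91%, 3.28% and 3.51%, overlapped the Sham libraries at CCGG sites, at 3.41%, 3.08% and 2.93%. Why the end sites read higher was not tested.

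**Figure D5:**
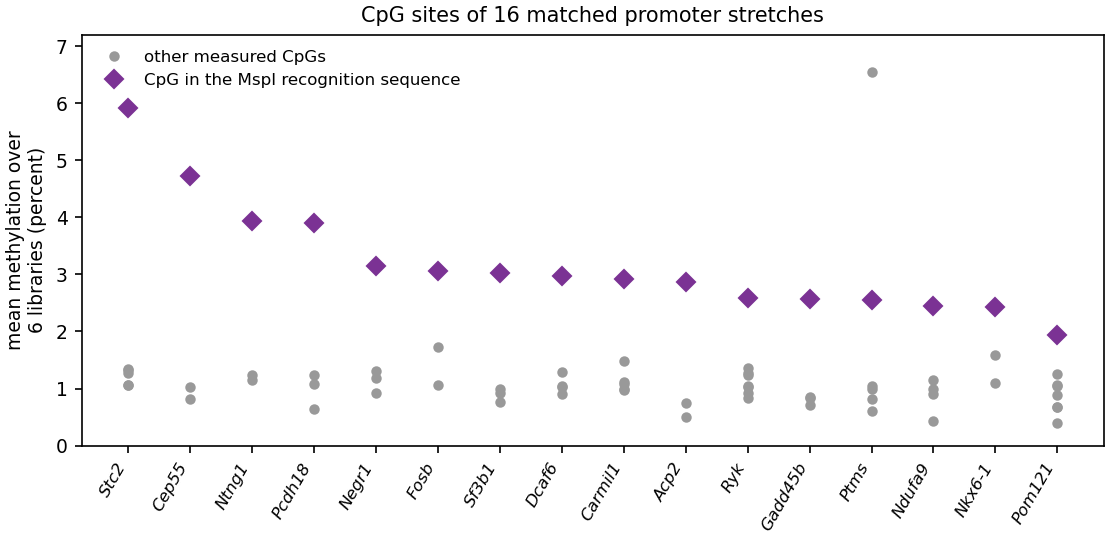
Mean methylation over the 6 libraries (y axis, percent) of measured CpGs in 16 promoter stretches (x axis, genes ordered by the MspI site's value), with the CpG inside the MspI recognition sequence as a diamond and the other CpGs as grey circles. The diamond is the highest point in 15 stretches, and Ptms is the exception.

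By function, 37 of the member genes belong to at least 1 of 15 gene lists. No site of any list was called, which already follows from the 0 called among all 787 members (1.42% of all sites). The list of homeobox and other developmental transcription factors was the largest group, with 13 of its 137 annotated genes and 53 sites. It also takes in the noncoding RNA Hoxa11-as, with 6 sites, the list's highest site mean (8.35%) and its lowest p. The list's median site mean was 2.31%, against 1.40% over all members, and 4 of the 53 sites (7.55%) had an unadjusted p under 0.05, against 3.43% of members and 13.1% of all sites. These values were not computed without Hoxa11-as. The median difference of these sites was -0.07 points, against 0.07 over all members.

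Genes of the nerve injury and regeneration response had unmethylated islands in both groups. The 9 of 42 such genes with member sites were Atf3, Fosb, Gadd45b, Igf1r, Klf4, Lif, Ncam1, Sarm1 and Socs3. Their 30 sites had a median of 1.5% and ranged from 0.49% to 3.62%, with differences from -1.90 to 1.89 points. None had an unadjusted p under 0.05 (logistic model), against 3.43% of members and 13.1% of all sites. With 30 sites, a count of 0 is close to the share of members. Atf3, a transcription factor switched on in injured neurons, stood at 1.49%, 1.00% and 1.93% in SNL and 2.01%, 3.37% and 2.15% in Sham over its 3 sites. The SNL libraries lay below the Sham libraries, with an adjusted p of 0.529. Klf4, a zinc finger factor that restrains axon growth, stood at 2.27%, 3.38% and 3.19% in SNL and 2.40%, 1.13% and 2.35% in Sham, with overlap. Gadd45b, which is linked to DNA demethylation, stood at 1.41% ± 0.07 and 1.37% ± 0.06 over 6 sites (SD, n = 3).

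Other lists held few members. Voltage-gated and leak channel genes had 6 of 94 genes and 19 sites with a median of 1.29%, among them Kcnk6 at 1.3%, Cacnb3 at 1.62% and Kcnab3 at 4.43%, a leak channel, a calcium channel subunit and a potassium channel subunit. Polycomb subunit genes Pcgf6 and Phc1 averaged 1.49% and 1.76% over 5 sites each. Runx1, a factor of pain-sensing neurons, had 1 site at 3.03%, and Erbb3, the neuregulin receptor of Schwann cells, had 2 with a mean of 2.36%. Trim71 in the imprinted gene list averaged 1.73%, Ndufa9 of the respiratory chain 1.19% and Rpl36al1 of the ribosome 1.40%. Of 35 annotated germline genes only Dazl had island promoter sites. Genes for neurotransmitter receptors, proteasome and chaperones, immune cells, and endothelial cells, pericytes and fibroblasts had none, so their islands were not described here.

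The 6 starts with an unadjusted p under 0.05 in the summed reads, named after their values were seen, were Lpl, Cdkn2c, Dnmt3a, Map2k2, Tacc1 and Carmil1. Lpl, the lipoprotein lipase, stood at 2.21%, 1.86% and 2.21% in SNL and 1.40%, 1.28% and 1.22% in Sham over 6 sites. The groups did not overlap, with a difference of 0.79 points ± 0.13 (SE, adjusted p = 0.204). Cdkn2c, an inhibitor of cell cycle kinases, stood at 1.79%, 2.12% and 1.32% against 0.45%, 1.21% and 0.49% (adjusted p = 0.238). Dnmt3a stood at 12.4% ± 1.5 and 9.71% ± 0.95 (SD, n = 3, adjusted p = 0.256), and Map2k2 and Tacc1 were higher in SNL as at their single sites above. Carmil1, a regulator of actin capping, was lower in SNL, with 1.11%, 0.93% and 0.94% against 1.89%, 2.30% and 1.39% (adjusted p = 0.327). None passed the threshold.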

How the data were processed

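RRBS libraries were made from 1 µg of MspI-digested genomic DNA and sequenced as single reads of 50 bases, per the labels' protocols. Reads were processed with Bismark 0.18.1, Bowtie2 and methylKit 1.3.3 on rn4, per the submitters' processing notes (the protocol text names a human assembly). Per the file headers, the deposited files give, for every CpG cytosine, a count of covering reads and the percent that kept C, and the authors deposited p-values, q-values, a percent difference and annotation flags for sites of at least 100 reads. Positions are as the files list them. The promoter flag covers about 1 kb around a start, a gene name means the nearest start, and 206 of the 215 member transcripts were matched to symbols by RefSeq accession.

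Methylated reads were recovered as coverage times percent. SNL and Sham were compared per site by logistic regression over all annotated sites, with overdispersion moderated by limma's fitFDist and kept at 1 or above, a two-sided F test and Benjamini-Hochberg adjustment at 0.05. Counts summed per transcript and class were tested likewise, and sites of 1 fragment share reads. The test was tried on counts simulated from the coverage and levels of the data. It called 99 of 100 member sites shifted by 10 points and 100 of 100 shifted by 20 points. It also called 39 of 32474 unchanged sites. The largest difference at a member was 5.16 points, and shifts of that size or smaller were not simulated. Detection at the sizes seen was therefore not tested. Members and lists were chosen with earlier results of these data known. Genes named were the 8 lowest p-values, the 10 highest means and the 10 nearest to 50% (genes with 2 or more sites), the 5 with most sites, the 3 widest ranges and up to 3 per list. A few genes met by this rule are not reported here. Alternatives are in the closing section. Fits ran in R 4.3.3 with limma 3.58.1, summaries in Python 3.11.15 with pandas 2.3.3 and numpy 2.4.6, and plots used matplotlib 3.10.9.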

Additional observations from a re-analysis of the deposited data

How the results depend on the processing

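The count of called members was 0 for sites and for summed starts with library offsets, the unmoderated test and limma. It was also 0 with a coverage minimum of 200 reads, a threshold of 0.1 and each library left out. A minimum difference of 5 points can only remove calls, so its count of 0 was fixed in advance. The unmoderated test called 0 of all 8820 sums, so its 0 carries no information on the starts. With 1 library left out, 7 (0.0794%, without Sham 3) to 135 (1.53%, without SNL 1) of all 8820 sums were called. At such shares a count of 0 among 215 starts carries little information. By the authors' deposited q-value the count of called members was 1 site. The libraries share replicate numbers. Deviations of same-numbered libraries correlated at -0.003, 0.148 and -0.067, within the -0.177 to 0.18 of differently numbered libraries. The numbers were therefore not taken as pairs, which does not show that SNL and Sham libraries came from different animals. With a replicate block the count was 0 of 787 sites and 0 of 215 starts, and 132 of all sites. Over all annotated sites the count ran from 129 to 522 with 1 library left out, the lowest without Sham 3, and was 0 with limma and without moderation. The mean difference of members, 0.12 points, was 0.08 to 0.14 with 1 library left out, 0.20 at 200 reads or more and 0.05 at the inner sites of stretches. The last setting and that without the 3 most methylated genes (0.10) were chosen after seeing the data. The share of sites under 5% was 94.0% to 95.4%. The median standard error of 0.60 points limits what could be detected at single sites.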
